A study of Mus musculus with 24 samples.

Results

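T cell receptor gene segments are the germline pieces from which a T cell assembles the receptor it uses to recognise antigen. They were taken here as every row of the deposited gene table that the annotation calls a variable (V), diversity (D), joining (J) or constant (C) segment of a T cell receptor locus, other than pseudogenes, and that had a read in at least 1 mouse. Of 226 such segments, 66 met the rule. They comprised 36 of 144 V segments, 0 of 4 D segments, 23 of 70 J segments and 7 of 8 C segments, and the other 160 had no read in any mouse. The whole table held 54532 genes.

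Messenger RNA was sequenced from brain hemispheres of 24 male wild-type C57Bl6 mice aged 8 to 12 weeks, in 4 groups of 6. Vehicle mice were infused with saline for 2 weeks through an osmotic minipump implanted under the skin. Angiotensin II mice received the pressor peptide at 0.7 mg per kg per day by the same route. Vehicle + AEC and angiotensin II + AEC mice had the same infusions, and were given human amnion epithelial cells (AEC), isolated from donated term placentae, through a tail vein after pump surgery. The mice without cells were given saline by that vein, so all groups carried a pump and were injected. The values describe whole brain tissue, so that fewer T cells and less receptor RNA per cell cannot be told apart.

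A developing T cell cuts and joins the DNA of a V, sometimes a D, and a J segment, and splicing then links the joined exon to a C segment. The alpha (Tra) and beta (Trb) chains form the receptor of most T cells, and the gamma (Trg) and delta (Trd) chains form that of a smaller population. The assembled chains reach the cell surface only in a complex with the CD3 proteins, so that a mature T cell makes V, J, C and CD3 transcripts together. C segments can also be transcribed from DNA that has not been joined. The brain holds few T cells, mostly in its blood vessels and membranes.

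The sequences that bear on the values below are those of the beta J cluster nearest to Trbc2, since Trbj2-3 and Trbj2-1 were among the segments with the largest differences, and those of both beta C segments, since they decide how far reads of Trbc1 and Trbc2 could be told apart. All were read from the GENCODE M21 transcripts of GRCm38, on the plus strand of chromosome 6, 5′ to 3′. In the J segments, the capitals mark the first match on the sense strand to a codon TTN followed by GGN, any codon and GGN, which covers the phenylalanine-glycine core that J segments share. That match was found in 57 of 70 listed J segments (81.4%), in 21 of the 23 with reads, and in the first 50 bases of 1.19% of 141672 annotated transcripts. The 6 listed J segments of this cluster lie between 41542754 and 41543856 and had the following sequences.
Trbj2-1: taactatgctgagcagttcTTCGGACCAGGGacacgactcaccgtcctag
Trbj2-2: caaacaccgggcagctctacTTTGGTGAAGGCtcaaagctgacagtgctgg
Trbj2-3: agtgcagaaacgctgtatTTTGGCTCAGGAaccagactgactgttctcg
Trbj2-4: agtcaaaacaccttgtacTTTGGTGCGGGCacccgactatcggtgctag
Trbj2-5: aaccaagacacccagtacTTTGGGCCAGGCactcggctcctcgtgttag
Trbj2-7: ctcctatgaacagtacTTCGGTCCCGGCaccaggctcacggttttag

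The C segments of the beta locus, Trbc1 (chr6:41538218-41539881) and Trbc2 (chr6:41546730-41548352), encode nearly the same constant domain. Over the 375 bases of their first exon they differed at 1 base, and over the 146 coding bases after it at 22. Those 146 bases are shown spliced, with the bases that differ in capitals.
Trbc1: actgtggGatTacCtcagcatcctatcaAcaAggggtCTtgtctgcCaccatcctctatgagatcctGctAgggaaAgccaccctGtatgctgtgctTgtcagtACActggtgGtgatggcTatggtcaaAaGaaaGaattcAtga
Trbc2: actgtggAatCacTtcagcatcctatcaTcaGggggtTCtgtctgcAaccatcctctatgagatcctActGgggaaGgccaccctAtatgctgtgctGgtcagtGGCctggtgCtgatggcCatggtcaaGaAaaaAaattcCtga
How reads that match both copies were assigned is not given in the sources used here, so the split between Trbc1 and Trbc2 is uncertain for reads that lie within the first exon.

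The 66 segments held 4502 reads in 24 mice, from 130 to 314 reads per mouse with a median of 183.5. This came to 7.58 to 13.7 RPM (reads per 1000000 reads counted over all genes of the library), beside 9133 to 11360 RPM for 7 genes of brain tissue such as Snap25 and Mbp. C segments took 4038 of these reads (89.7%), V segments 259 (5.75%) and J segments 205 (4.55%). By locus, Trb held 3471 reads (77.1%), Tra 841, Trd 177 and Trg 8, and the V segment B230359F08Rik, in the shared alpha and delta locus, held 5. Most segments were barely measured: 31 had reads in 1 mouse only, 19 had 1 read in all, and 3 were above 0 in all 24 mice. The tests took in 16 segments (4 C, 5 J and 7 V) that were above 0 in at least 6 mice, and 50 were left out. The highest of those 50 by reads was Trav9-2, with 12 reads in 5 mice. A further 8 of 44 pseudogene segments, which are not members, held 35 reads.

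Reads counted over all genes ranged from 16536449 to 25308700 per library. A set of 6 libraries (vehicle replicates 5 and 6, angiotensin II replicate 5, vehicle + AEC replicate 6, and angiotensin II + AEC replicates 5 and 6) had total FPKM of 338334.5 to 348596.7, apart from the 277115.9 to 298300.6 of the other 18, and mitochondrial shares of 6.17 to 6.85% against 4.79 to 5.75%. FPKM is fragments per kilobase of gene and per 1000000 mapped fragments, so that ratios between genes depend on their annotated lengths.

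Trbc2, the second beta C segment, was by far the most abundant segment. It had 3273 reads, 87 to 247 in each mouse, and a level of 10.1 FPKM ± 2.04 (SD, n = 24 mice), with a range from 6.90 to 13.997. Trac (chr14:54220521-54224206), the only alpha C segment, had 590 reads, 10 to 56 in each mouse, and 1.36 FPKM ± 0.530 (SD, n = 24 mice). Its range was 0.610 to 2.83 FPKM, and so did not overlap that of Trbc2. The mean level of Trbc2 was 7.44 times that of Trac. In an assembled receptor, the alpha and beta chains are present in equal numbers.

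Trdc (chr14:54142851-54148868), the delta C segment, had 153 reads and 0.0842 FPKM ± 0.0495 (SD, n = 24 mice) over an annotated length of 3865 bases. It overlaps Trdv5, which had 2 reads, and Gm43434, which had 0, on the opposite strand. Trbc1 had 14 reads in 9 mice. The mean FPKM of Trbc2 was 249 times that of Trbc1. Of the gamma C segments, Tcrg-C2 had 5 reads in 3 mice, Tcrg-C4 had 2 reads in 1 mouse and Tcrg-C1 had 1 read. In order of mean level, Trbc2 stood above Trac and Trac above Trdc with no overlap, and Trdc overlapped Trbc1.

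The CD3 genes, whose proteins hold the receptor at the surface, were far lower than Trbc2 and Trac. Cd3e had 98 reads in 23 mice and 0.050 FPKM ± 0.030 (SD, n = 24 mice). Cd247 had 83 reads in 22 mice, Cd3g 34 reads in 14 mice and Cd3d 22 reads in 12 mice. In FPKM, Trbc2 was 202 times and Trac 27.1 times the level of Cd3e, and both were above the highest Cd3e value in 24 of 24 mice. In reads, the ratios were 33.4 and 6.02. The annotated length is 4080 bases for Cd3e, 692 for Trbc2 and 935 for Trac. Trdc was 1.68 times the level of Cd3e and overlapped it. Cd4, the helper T cell coreceptor that microglia and macrophages also make, had 1.97 FPKM, whereas Cd8a had 0.0273 and Cd8b1 0.0334. Zap70 and Lck, kinases that signal below the receptor, had 1.08 and 0.516 FPKM. Ighm, the constant gene of the B cell heavy chain, had 13.7 FPKM, and its range overlapped that of Trbc2. Of the genes of receptor assembly, Rag1 had 148 reads and Rag2 was listed at 0 in every mouse.

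**Figure D1:**
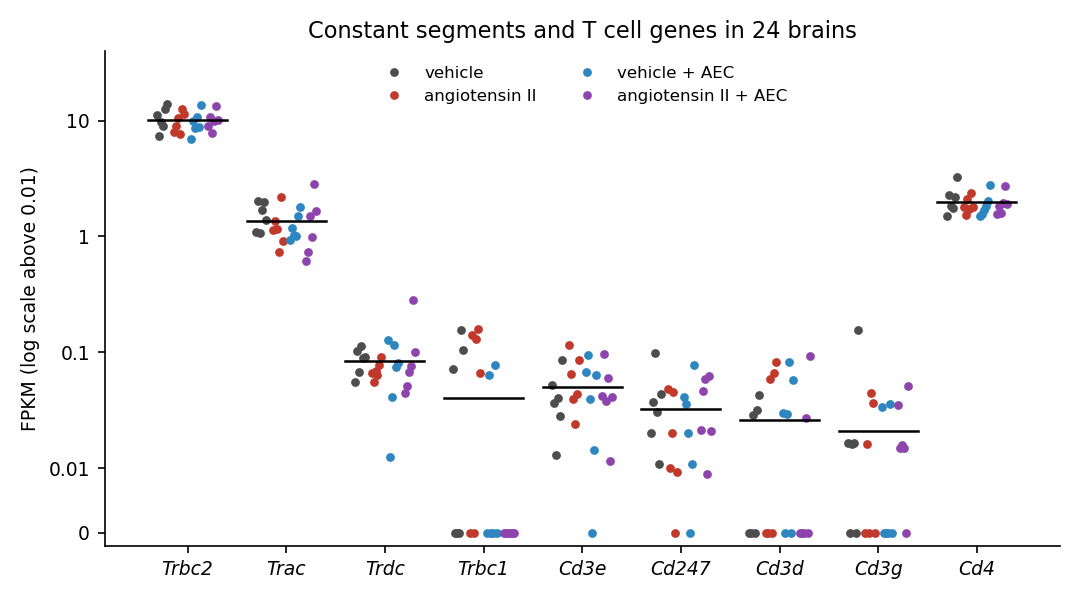
FPKM of the 4 tested C segments, the CD3 genes and Cd4 in each of 24 mice, coloured by group, on an axis that is logarithmic above 0.01. Black bars mark the means, and Trbc2 (6.90 to 13.997 FPKM) and Trac (0.610 to 2.83 FPKM) lie above every CD3 value.

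Across the 24 mice, no correlation of C segment levels with Cd3e was detected in FPKM. Pearson's r with Cd3e was 0.04 for Trbc2 (permutation p = 0.862) and -0.31 for Trac (permutation p = 0.138), and Spearman's rho was 0.13 (permutation p = 0.548) and -0.24 (permutation p = 0.251). For Trdc, r was -0.37 (permutation p = 0.0704) and rho -0.29 (permutation p = 0.169), and for Trbc1 r was 0.02 (permutation p = 0.912) and rho 0.08 (permutation p = 0.700). Adjusted over these 4 relations, the lowest p was 0.276 for r and 0.501 for rho. Without the 2 mice farthest from the median of Cd3e, r was 0.15 for Trbc2, -0.23 for Trac, -0.36 for Trdc and 0.19 for Trbc1. Within the 18 libraries of lower total FPKM, the values were 0.10, -0.19, -0.31 and 0.03. Cd3e had few reads per mouse, which limits what these correlations can show.

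C segment levels did differ between the sets of libraries. Trbc2 was 12.7 FPKM ± 1.39 (SD) in the 6 libraries of higher total FPKM and 9.22 ± 1.36 in the other 18, a ratio of 1.38. The ratio was 1.72 for Trac, 1.67 for Trdc and 1.44 for Cd4. Of the CD3 genes, all with few reads, it was 0.894 for Cd3e, 1.15 for Cd247, 2.56 for Cd3d and 2.81 for Cd3g. In RPM, the CD3 genes together had a ratio of 1.26. Genes of the meninges had 1.44, erythroid genes 1.99, B cell genes 1.22 and microglial genes 0.863. The part of these cells and tissues in the level of the segments was not tested. Within a group, the RPM of Trbc2 varied with a coefficient of variation of 16.5 to 21.5%, against the 8.23 to 8.80% that counting error alone would give.

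In the beta locus, V reads were scarce beside C reads. There were 31 V reads from 8 segments, 0.943 for each 100 C reads, and 153 J reads, 4.65 for each 100. The alpha locus held 202 V reads from 24 segments (34.2 for each 100 C reads) and 49 J reads from 15 segments (8.31 for each 100). The delta locus held 21 V reads, 13.7 for each 100 C reads, and the gamma locus had neither V nor J reads. No D segment of the beta or delta locus had a read in the 24 mice, where a count of 0 allows up to 3 reads. The counter is not given in the sources used here. Whether it could assign reads to D segments is therefore not known, and the 0 does not measure their use.

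Beta J reads came almost wholly from the cluster next to Trbc2. Trbj2 segments held 151 reads, with 5 of 6 listed segments detected, and Trbj1 segments held 2 reads, with 2 of 7 detected. Trbj2-3 led with 62 reads in 19 mice, followed by Trbj2-7 with 36 in 16 mice and Trbj2-1 with 31 in 15 mice. Trbj2-2 had 13 reads, Trbj2-4 had 9, and Trbj2-5, which holds the same core motif in the sequences above, had 0. Of the alpha J segments, Traj37 had 12 reads, Traj58 had 9 and Traj59 had 6, and Trdj2 was the only delta J segment with reads, at 3.

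**Figure D2:**
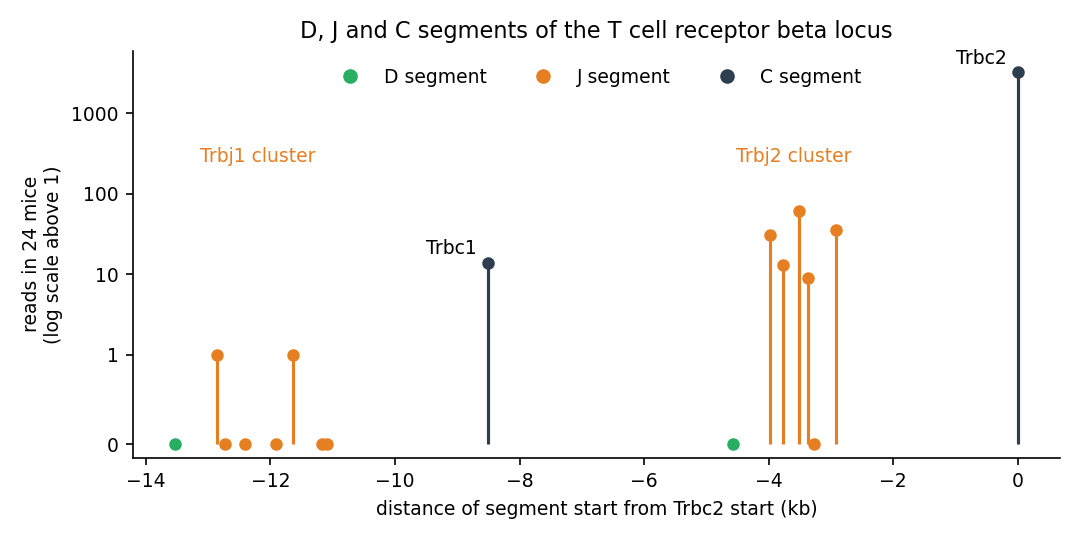
Reads in 24 mice of each listed D, J and C segment of the beta locus, plotted by the distance of its start from the start of Trbc2 in kilobases, on an axis that is logarithmic above 1. Trbc2 (3273 reads) and the Trbj2 cluster (151 reads) stand high beside Trbc1 (14 reads) and the Trbj1 cluster (2 reads).

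Among V segments, alpha segments had the most reads. Trav9d-4 had 40 reads in 14 mice, Trav4-4-dv10 had 37 in 14 and Trav9n-4 had 33 in 13, and Trav9-4, a near copy of the first and the last of these, had 28 in 13. Aligned with each other, the transcripts of these 3 copies were identical at 90.6 to 97.5% of positions, so their separate counts are uncertain, and together they held 101 reads. The leading beta V segments were Trbv13-2 with 11 reads, Trbv12-2 with 8 and Trbv13-3 with 4. Of the delta V segments, Trdv4 had 18 reads, Trdv5 had 2 and Trdv1 had 1. Trdv4 overlaps the antisense gene Gm30275, which had 3 reads.

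The first comparison asked what angiotensin II did to these segments. Summed segment reads were 10.4 RPM ± 1.57 (SD, n = 6) with vehicle and 9.88 ± 1.71 with angiotensin II, and the ranges, 8.72 to 12.4 and 7.77 to 12.6, overlapped. Trbj2-3 rose with angiotensin II at an unadjusted p under 0.05, the C segments did not pass the test, and no segment passed the adjusted threshold. Of 16 tested segments, 1 was past the unadjusted threshold, and it was higher. Of 27286 genes, 2.21% were past it, and 1.21% were past it and higher. No segment was past the adjusted threshold in limma or in limma-voom on the recovered reads, where the unadjusted count was also 1. The median log2 difference of the 16 was 0.17, and that of all genes tested was 0.02.

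Trbc2 had 103 to 247 reads per mouse with vehicle (median 136) and 108 to 158 with angiotensin II (median 132). Its level was 10.6 FPKM ± 2.44 (SD, n = 6) with vehicle and 9.87 ± 1.99 with angiotensin II. The log2 difference was -0.10 (SE 0.17, adjusted p = 0.994 in limma), with a 95% interval of -0.45 to 0.25. In the 18 libraries of lower total FPKM, the group means were 9.32 ± 1.61 (n = 4) and 9.31 ± 1.62 (n = 5). Trac had 19 to 38 reads with vehicle (median 30.5) and 14 to 34 with angiotensin II (median 22), and 5 of 6 angiotensin II mice lay below the vehicle mean. The log2 difference was -0.32 (SE 0.29), with a 95% interval of -0.92 to 0.28. That of Trdc was -0.13 (SE 0.20), from 40 and 32 reads.

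**Figure D3:**
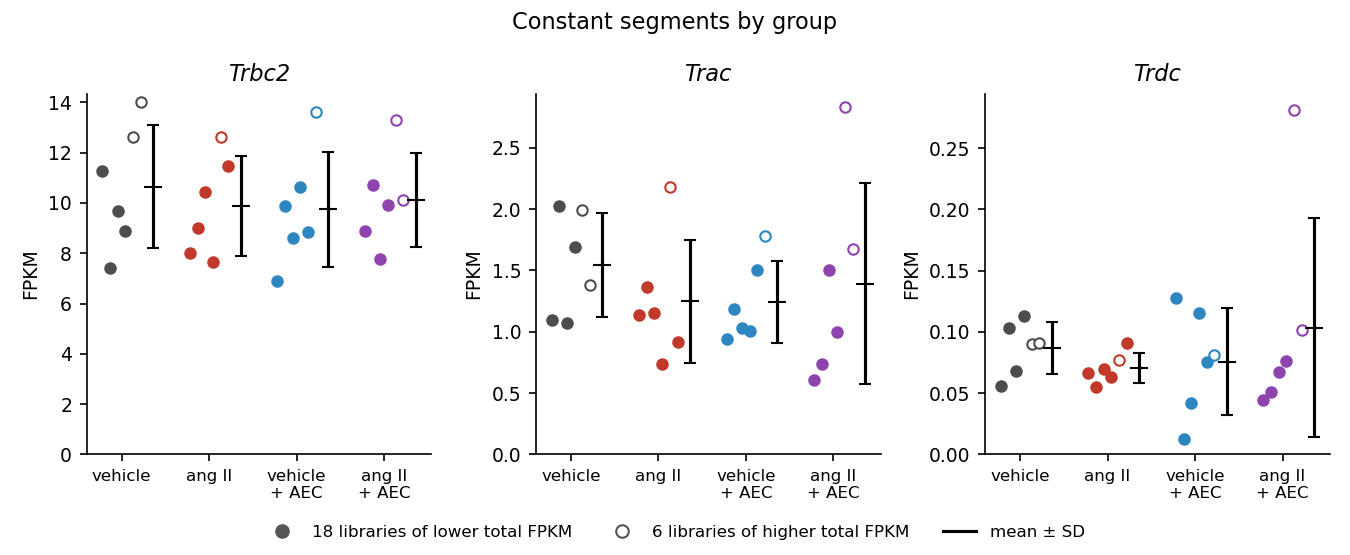
FPKM of Trbc2, Trac and Trdc in each mouse by group, with the mean and SD beside the points, and open points for the 6 libraries of higher total FPKM. The groups overlap in all 3 panels, and angiotensin II + AEC replicate 5 is highest for Trac (2.83 FPKM) and Trdc (0.281 FPKM).

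Trbj2-3 had 4, 0, 0, 1, 0 and 2 reads in the 6 vehicle mice and 7, 5, 4, 6, 2 and 3 in the 6 angiotensin II mice. In FPKM, 4 angiotensin II mice were above every vehicle mouse, and the groups overlapped. In all there were 7 and 27 reads, a ratio of 3.91 per read counted over all genes, with a 95% counting interval of 1.66 to 10.6. The level was 1.18 FPKM ± 1.71 (SD, n = 6) with vehicle and 4.57 ± 1.54 with angiotensin II. The difference on the log2(FPKM + 0.1) scale was 3.27 (SE 1.0, unadjusted p = 0.00346 and adjusted p = 0.994 in limma), and a two-sided exact permutation test gave p = 0.00649. The size of the log2 difference depends on the constant added, being 1.61 with 1 and 4.94 with 0.01, since 1 read of this segment of 49 bases was worth 0.800 to 1.22 FPKM.

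The other tested segments of the cluster had more reads with angiotensin II than with vehicle, but none passed the test. Trbj2-7 had 13 against 6 reads (unadjusted p = 0.0651 in limma), Trbj2-1 had 12 against 5 and Trbj2-2 had 6 against 2. Trbj2-7 did pass, at an unadjusted p under 0.05, in the 18 libraries of lower total FPKM, where 1053 of the 27286 genes did, against 604 in all libraries. All beta J segments together had 1 to 6 reads per mouse with vehicle (median 3.5) and 5 to 19 with angiotensin II (median 9.5). As RPM these were 0.0519 to 0.274 and 0.302 to 0.846, so that the groups did not overlap. Of 11 sums by locus and segment type, 1 did not overlap in either direction. Single genes were higher without overlap in 0.0293% of 27286, a share that is no background for a sum of several segments. Trbj2-3 held 27 of the 60 angiotensin II reads of the sum. The sum was looked at with the values of Trbj2-3 known and is given as a description, with no test.

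**Figure D4:**
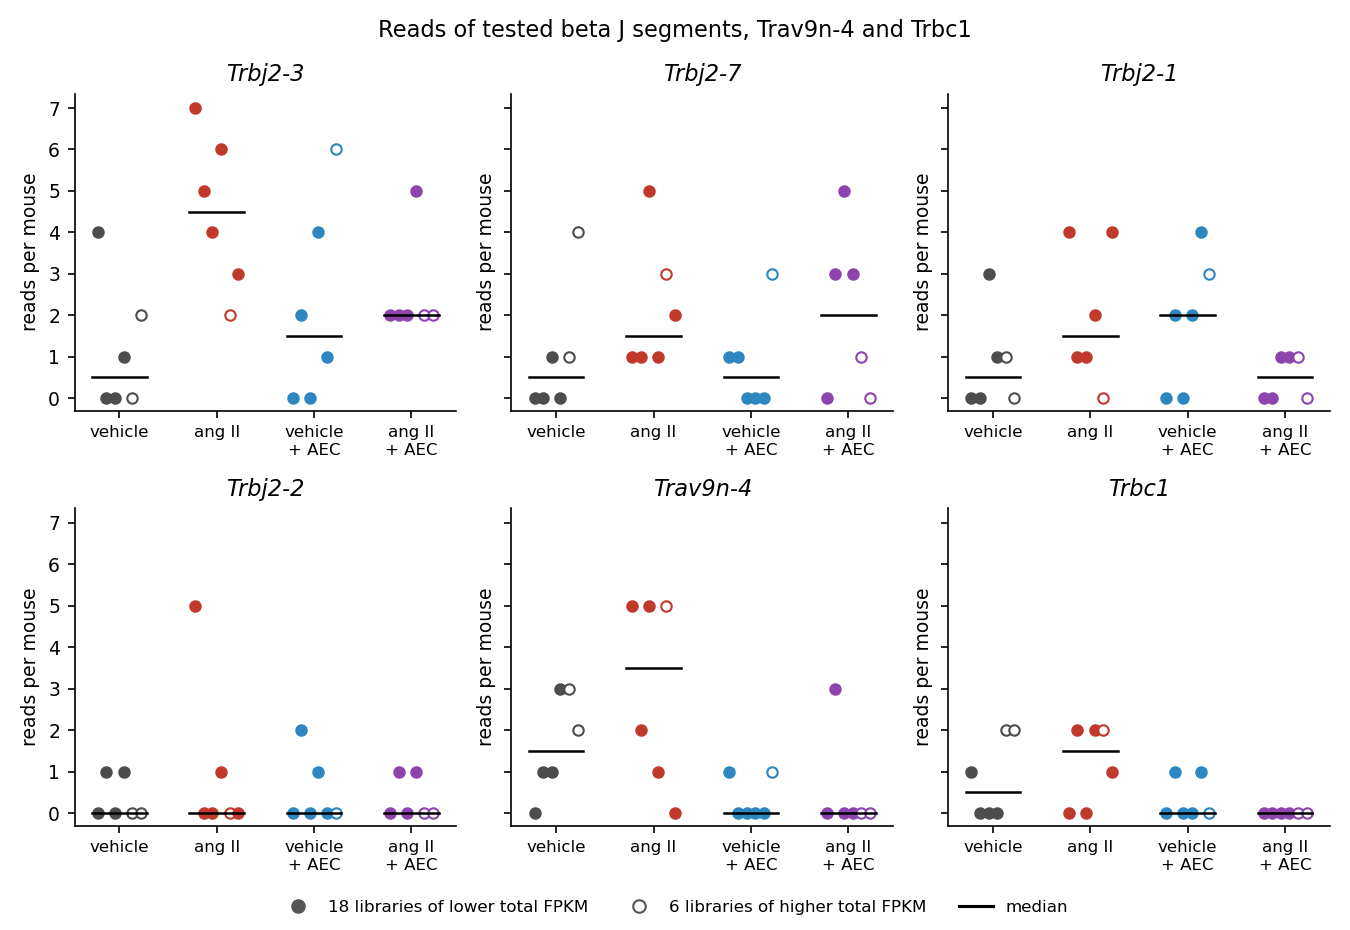
Reads per mouse of the 4 tested Trbj2 segments, Trav9n-4 and Trbc1 by group, with a bar at the median and open points for the 6 libraries of higher total FPKM. Trbj2-3 has 2 to 7 reads in the angiotensin II mice and 0 to 4 in the vehicle mice, and Trbc1 has no read in any angiotensin II + AEC mouse.

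The next comparison asked whether amnion cells changed the segments in mice infused with angiotensin II. Their summed reads were 9.85 RPM ± 2.03 (SD, n = 6) with the cells, against 9.88 ± 1.71 without. Trav9n-4, an alpha V segment, and Trbc1 fell at an unadjusted p under 0.05, each on a few reads. These were 2 of 16 tested segments, both lower, against 2.54% of genes in either direction and 1.45% lower. Trbc1 met the filter of reads in 6 mice only with the angiotensin II mice counted, so its call is not independent of the filter. No segment passed the adjusted threshold in limma or limma-voom, where the unadjusted count was again 2. The median log2 difference of the 16 was -0.45, and that of all genes tested was -0.02. This comparison shares the angiotensin II mice with the one above.

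Trav9n-4 had 5, 2, 5, 1, 5 and 0 reads in the 6 angiotensin II mice, and in the angiotensin II + AEC mice 3 reads in replicate 2 and 0 in the others. The ratio of 3 to 18 reads was 0.168 per read counted over all genes, with a 95% counting interval of 0.0316 to 0.574. The log2 difference was -1.30 (SE 0.42, unadjusted p = 0.00539 in limma), and the two-sided exact permutation test gave p = 0.0411. In the 18 libraries of lower total FPKM the difference was -0.95 and the unadjusted p was 0.0733. The 3 near copies of this segment together had 33 reads with angiotensin II and 16 with the cells added, 0 to 6 per mouse, and overlapped.

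Trbc1 had 0, 2, 0, 2, 2 and 1 reads in the angiotensin II mice and 0 in each angiotensin II + AEC mouse. With the 0 set to a floor of 3 reads over the group, Trbc1 was 2.32-fold lower with the cells. That figure leaves out the counting error of the reads without the cells, so it is not a lower bound. The unadjusted p was 0.00906 in limma and 0.0606 in the two-sided exact permutation test. Trbc1 was among the tested segments only through the angiotensin II mice, the group in which it was higher here. Trbc2, whose first exon of 375 bases differs from that of Trbc1 at 1 base, had 793 and 821 reads. Its log2 difference was 0.04 (SE 0.17), with a 95% interval of -0.31 to 0.39. Trac had 14 to 34 reads (median 22) and 10 to 56 (median 23), with a log2 difference of 0.05 (SE 0.29). Its 95% interval was -0.55 to 0.65. Without angiotensin II + AEC replicate 5, a library of higher total FPKM with 56 Trac and 23 Trdc reads, the differences were -0.18 for Trac and -0.03 for Trdc.

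Trbj2-1 had 4, 1, 1, 2, 0 and 4 reads with angiotensin II, and 0 or 1 in each mouse with the cells added. Its 12 and 3 reads gave a ratio of 0.251 per read counted over all genes, with a counting interval of 0.0455 to 0.932. The log2 difference of -1.94 (SE 1.19) did not pass the test (unadjusted p = 0.116 in limma, and p = 0.0671 in the two-sided exact permutation test). Trbj2-3 had 27 reads with angiotensin II and 15 with the cells, where 5 of 6 mice had 2 reads. Its log2 difference was -0.79 (SE 1.0, unadjusted p = 0.438 in limma), whereas the two-sided exact permutation test gave p = 0.0238.

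With amnion cells in vehicle mice, 0 of 16 tested segments were past an unadjusted p under 0.05 in limma or limma-voom, beside 2.41% of genes in limma, and 0 were past the adjusted threshold in either. The summed reads were 9.42 RPM ± 1.92 (SD, n = 6) with the cells and 10.4 ± 1.57 without. Trbc2 had 87 to 181 reads with the cells (median 126.5), a log2 difference of -0.13 (SE 0.17) with a 95% interval of -0.47 to 0.22. Trac differed by -0.29 (SE 0.29), and 5 of 6 mice with the cells were below the vehicle mean. Trbj2-3 had 13 against 7 reads and Trbj2-1 had 11 against 5. The lowest unadjusted p in this comparison, 0.0590 in limma, was that of Trav9n-4. It had 2 against 10 reads.

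In limma, 0 of 16 segments passed the interaction test at an unadjusted p under 0.05, and 1 did in limma-voom (Trbj2-1). The test asked whether the effect of the cells differed between vehicle and angiotensin II mice, and 2.54% of genes passed it in limma. The interaction was 0.17 (SE 0.24) for Trbc2 and 0.34 (SE 0.41) for Trac on the log2 scale. The largest in size was that of Trbj2-1, at -3.11 (SE 1.68, unadjusted p = 0.0766 in limma).

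**Figure D5:**
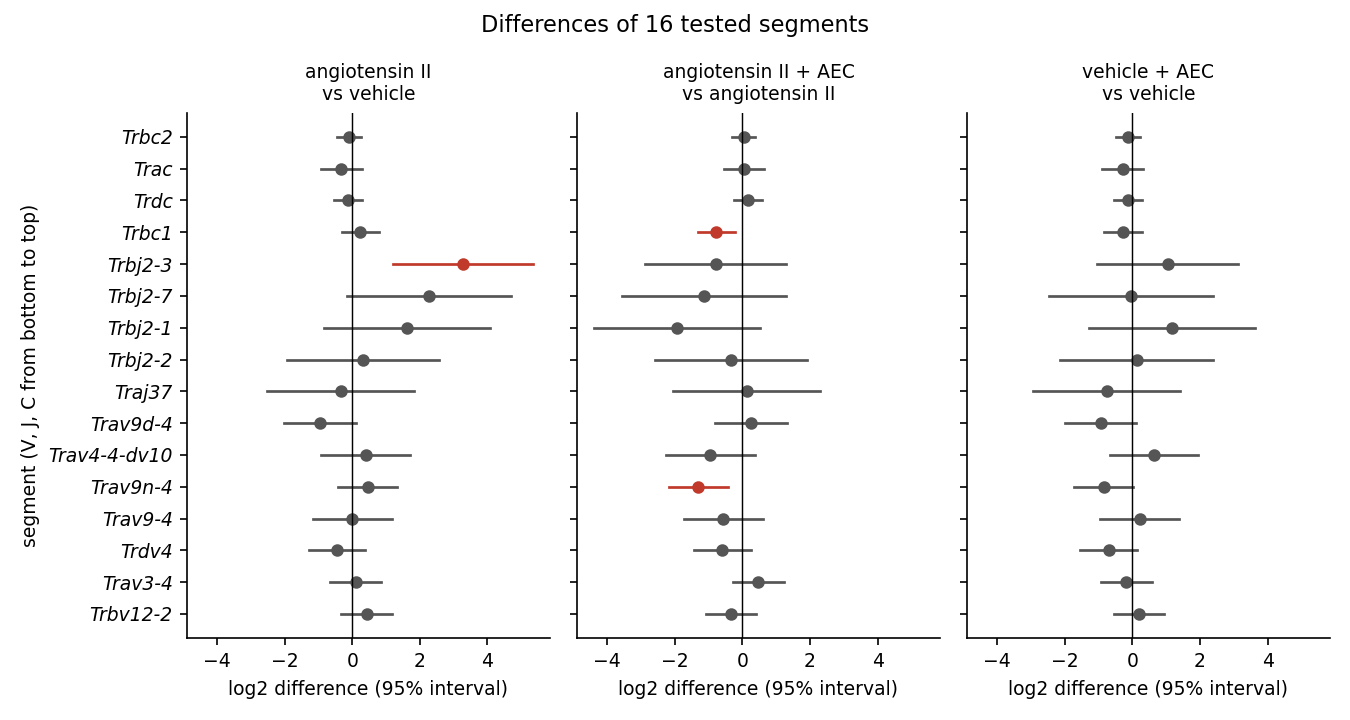
Log2 differences with 95% intervals of the 16 tested segments in the 3 comparisons between groups, from limma on log2(FPKM + 0.1), with segments at an unadjusted p under 0.05 in red. The intervals of Trbc2 stay within -0.47 and 0.39, whereas those of J segments of about 50 bases span several log2 units.

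Few genes that work with the receptor passed the test. Of 4 CD3 genes, 3 coreceptor genes and 12 genes of receptor signalling, 0 passed an unadjusted p under 0.05 in limma in any of the 4 contrasts. Of all genes tested, 2.21 to 2.54% did in each contrast. Cd3e had 22 reads with vehicle and 31 with angiotensin II, then 22 and 23 in the groups given cells, and its log2 differences were 0.18 (SE 0.17), -0.13 and 0.02. Of 11 tested T cell surface and transcription factor genes, Cd5, a surface receptor that dampens signalling, passed with the cells added to angiotensin II (27 reads with the cells and 11 without, log2 difference 0.56). None of that list passed in the other 3 contrasts.

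Ptcra, whose protein pairs with a new beta chain in developing T cells, had the lowest p-values of these genes. Vehicle mice had 0 to 3 Ptcra reads each (median 1.5) and angiotensin II mice 2 to 8 (median 6.5). Its log2 difference was 1.07 (SE 0.30, unadjusted p = 0.00151 in limma). With the cells added to angiotensin II it had 0 to 4 reads (median 1.5) and a log2 difference of -1.09. Its interaction was -1.37 (SE 0.42, unadjusted p = 0.00351). None of these passed the adjusted threshold. Rag1 did not pass in any contrast.

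Markers of other cells were compared beside the segments. With angiotensin II against vehicle, 3 of 7 neutrophil genes (S100a8, S100a9 and Retnlg) were higher at an unadjusted p under 0.05 in limma. So were 1 of 9 cytotoxic and natural killer cell genes (Ctsw) and 1 of 8 B cell genes (Blk). Of all genes tested, 1.21% were past that threshold and higher. No gene of these lists passed the adjusted threshold in any contrast. Summed neutrophil reads were 5.77 to 11.0 RPM with vehicle, 6.95 to 21.6 with angiotensin II, 6.63 to 16.7 with vehicle + AEC and 8.25 to 42.8 with angiotensin II + AEC. With the cells added to angiotensin II, 1 of 7 neutrophil genes (Camp) and 1 of 8 B cell genes (Igkc) were higher. Another B cell gene, Blk, was lower, beside 2.54% of all genes in either direction. With the cells added to vehicle, Ctsw was higher and 1 of 7 meningeal genes (Lum) was lower, beside 2.41% of all genes. In the interaction, Igkc, Camp and 1 of the 7 meningeal genes (Col1a1) were higher, beside 2.54% of all genes in either direction. Of the erythroid, border macrophage, microglial and brain tissue genes, 0 of 5, 0 of 6, 0 of 5 and 0 of 7 passed in each contrast. The part of blood or other cells in the Trbj2-3, Trav9n-4 and Trbc1 differences was not tested.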

How the data were processed

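The authors sequenced poly-A RNA of brain hemispheres on an Illumina HiSeq instrument, mapped it to the Ensembl mouse genome (GRCm38 and mm10 in the submitters' processing notes) and used DESeq 1.10.1. The aligner, the counter, the strand setting and the handling of reads that match several genes are not given in the sources used here. The deposited values are FPKM per gene, made by the authors, with gene lengths and coordinates. Whole reads were recovered from FPKM times gene length, and 100% of values above 0 came within 0.01 of a whole read, or for high values within 1e-05 of the value.

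The main test was limma 3.58.1 (R 4.3.3) on log2(FPKM + 0.1), fitted to the 4 groups at once with a trend. The Benjamini-Hochberg method adjusted p over all 27286 genes that had reads in 6 or more mice. Two-sided exact permutation tests (924 relabellings, smallest p 0.00216) were made for single genes, and permutations with 100000 resamples for correlations. Sums over segments have no test. Intervals at 95% and the floor of 3 reads cover counting error only. The fit was tested on simulated data, where only genes with more reads per mouse than the J and V segments were changed. That test therefore does not show how the fit performs on those segments. Alternatives changed the added constant, the filter, the groups in the fit, the scaling, the weights and the libraries.

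The segments and gene lists were chosen with earlier results of these data known. The rule for named genes took every C segment, the 3 V, D and J segments with most reads in each locus, the 5 segments with the lowest unadjusted p under 0.05 in each contrast, Trbj2-3, Trbj2-1, Ptcra, the CD3, coreceptor, Lck and Rag genes, listed genes with an unadjusted p under 0.05, and genes overlapping a segment. Trav9-2, Trav9-4, Trbj2-2, Trbj2-4, Trbj2-5, B230359F08Rik, Zap70, Ighm, Snap25 and Mbp were named beyond it, after their values were seen.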

Additional observations from a re-analysis of the deposited data

Results flagged for a closer look

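In groups of 6, a mouse was picked out where its gap to the nearest other mouse was, as a share of the range of the group, above Dixon's 95% critical value. This was looked for in 60 groups of values and met in 8, where chance alone gives about 1 in 20, and groups of few reads meet it easily.

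Angiotensin II + AEC replicate 5, a library of higher total FPKM, had 0.281 FPKM of Trdc against 0.0442 to 0.101 in the other 5 mice of its group. The same mouse had the highest sum of segments, 13.7 RPM against 7.81 to 9.90.

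Of the beta J segments, Trbj2-3 stood out in vehicle replicate 1, with 4.39 FPKM against 0 to 1.60, and in angiotensin II + AEC replicate 4, with 4.995 FPKM against 1.93 to 2.33. Trbj2-1 stood out in vehicle replicate 3, with 3.17 FPKM against 0 to 1.16. Trbj2-7 stood out in vehicle replicate 6, with 3.34 FPKM against 0 to 1.24, and in vehicle + AEC replicate 6, with 3.32 FPKM against 0 to 1.17. Trav9n-4 was above 0 in angiotensin II + AEC replicate 2 alone within its group, at 0.249 FPKM. In limma as reported, 0 of 16 segments passed the interaction test between the cells and angiotensin II at an unadjusted p under 0.05, and Trbj2-1 passed in limma-voom and with 1 added to FPKM.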

How the results depend on the processing

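The planned count tests, DESeq2 and edgeR, were not used, since the deposited unit is FPKM and not counts, and TMM scaling was not run. Limma-voom on the recovered reads took the place of the first, and scaling by median ratios, chosen after seeing the data, that of the other. No segment passed the adjusted threshold in limma or limma-voom. Segments past an unadjusted p under 0.05, main counts 1, 2, 0 and 0, moved in these fits. For angiotensin II against vehicle, 2 passed with the compared groups only, array weights, the library set as a term, or the 18 libraries of lower total FPKM, the added segment being Trbj2-7. Over all 27286 genes, the count in these fits was 650, 1254, 944 and 1053, against 604 as reported. For the cells added to angiotensin II, 0 passed among genes with mean FPKM of at least 1, where Trav9n-4 and Trbc1 are filtered out, and 1 (Trbc1) in the 18 libraries. There 3 passed with the compared groups only, Trbj2-3 being added, and with array weights, Trbj2-1 being added, and the counts over all genes in these 3 fits were 1259, 682 and 1282, against 694. For the cells in vehicle mice, 1 passed with 0.01 added, with no filter or with the compared groups only, and for the interaction 1 passed with 1 added or in limma-voom (Trbj2-1 at -1.43 and -2.04). Over all genes, 642, 905 (of 36125 tested) and 657 passed in the first 3 of these fits, against 658, and 689 and 726 in the other two, against 692. The same-numbered mice of different groups correlated at -0.22 to 0.80, over 0.1 in 28 of 36 pairs. Their median correlation was 0.352, against 0.0697 for the other pairs. The 6 libraries of higher total FPKM were all replicates 5 or 6. The highest correlation, 0.805, joined 2 of these with unlike numbers, vehicle + AEC replicate 6 and angiotensin II + AEC replicate 5. Vehicle replicate 1 correlated at 0.357 with angiotensin II replicate 1 and at 0.439 with replicate 2. The part of the library sets in these correlations was not tested. The main fit did not pair mice by number. With a replicate block the segment counts were 1, 2, 0 and 0 as before. The counts over all genes rose to 950, 993, 1036 and 1416, against 604, 694, 658 and 692 as reported. Leaving out 1 mouse at a time gave 1 to 2, 2 to 3, 0 to 3 and 0 to 2 segments. Over all genes, these fits gave 537 to 843, 612 to 887, 590 to 1188 and 617 to 1244. The 3 segments in vehicle mice came without vehicle + AEC replicate 1, where 592 genes passed. For angiotensin II against vehicle, Trbj2-3 passed in each of 12 such fits.

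Log2 ratios of summed reads were -0.08, -0.00418 and -0.15 in the 3 comparisons between groups. They moved by more than the spread between mice with summed FPKM in place of reads, to 0.34 for angiotensin II against vehicle and -0.27 for the cells added to it, since FPKM weights short J segments. Leaving out 1 mouse gave -0.16 to -0.02, -0.12 to 0.08 and -0.25 to -0.09. For the cells added to angiotensin II, signs near 0 turned. Trbc2 was -0.038 with the library set as a term and -0.043 to 0.12 when leaving out 1 mouse. Trac was -0.10 with array weights, -0.071 with the library set as a term, -0.17 in the 18 libraries and -0.18 to 0.23 when leaving out 1 mouse. Trdc was -0.013 with array weights, -0.083 in the 18 libraries and -0.028 to 0.25 when leaving out 1 mouse. The causes were not tested. The correlation of Trbc1 with Cd3e was -0.072 as deviations from group means. At 0 to 9 reads of a segment per mouse, J and V segments allow only large differences to be seen.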
